A study of Mus musculus with 43 samples.

Results

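In colitic mouse colon, 614 autosomal CCCGGG sites were less methylated in polypoid dysplasia than in non-dysplastic epithelium by at least 10 percentage points on both the 0 mg and the 8 mg folic acid (FA) diet. They were chosen from 14815 sites of mouse genome build mm9 (4.14%), the sites of chromosomes 1 to 19 that had at least 20 reads in at least 4 libraries of each of 4 groups, out of 173449 listed sites. The groups were epithelium and polyps on 0 mg FA (0ND and 0P) and on 8 mg FA (8ND and 8P) of a second set of libraries, cohort 2 in the labels. The group means of methylation in these libraries, 0P minus 0ND and 8P minus 8ND, chose the sites, so these differences are a description and carry no test. Among the same 14815 sites, called eligible sites here, 118 gained at least 10 points on both diets.

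All animals were female Swiss Webster mice that carried the same carcinogen and colitis treatment, so no group is free of either. They received azoxymethane (AOM), a colon carcinogen, at 7 weeks of age and 4 cycles of 2% dextran sodium sulfate (DSS), which injures the colon lining, starting at 9 weeks, with 7 days of DSS and 14 days of plain water in a cycle. Chow held 2 mg/kg FA until 11 weeks, then 0, 2 or 8 mg/kg over 16 weeks, and colons were taken at 27 weeks. Cells were cut by laser from fixed, embedded sections, and their purity is not given in the sources used here. The study describes both non-dysplastic epithelial cells and epithelium taken with the lamina propria, the connective tissue beneath it, while the labels call all non-dysplastic libraries epithelia cells. Which of them hold lamina propria is not given in the sources used here, and its part in polyp minus epithelium was not tested. Cohort 1 held epithelium only, in 5 libraries of 0ND, 7 of 2ND and 6 of 8ND, and cohort 2 held 6 libraries of 0ND, 6 of 0P, 6 of 8ND and 7 of 8P. Each library was 1 mouse, except that the 7 lesions in 8P came from 6 mice, with 2 from mouse 1856. Mice 1807, 1809 and 1820 on 0 mg and mice 1830, 1841, 1848, 1856 and 1858 on 8 mg gave an epithelium library to each cohort, which ties the cohorts together, while no mouse on 2 mg was in cohort 2.

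DNA methylation is the addition of a methyl group to cytosine, in mammals mostly where a guanine follows. Most such positions outside CpG islands are methylated in normal tissue, whereas the CpG-dense islands at gene starts are mostly unmethylated, and loss of methylation across CpG-poor DNA is a long-known feature of colorectal neoplasia. Folate supplies the methyl groups through S-adenosylmethionine, the donor used by the DNA methyltransferases. In the assay used here, digital restriction enzyme analysis of methylation (DREAM), SmaI cuts unmethylated CCCGGG and XmaI then cuts what is left, and the sequence left at the cut end tells for each read whether its site was methylated. A site's methylation is the share of methylated reads, adjusted by the authors with spiked standards of known methylation. Libraries held between 1488920 and 16923453 reads on sites, with a median of 31 to 475 reads at the 614 sites. In cohort 2 the spiked standards took 32.6% to 77.4% of the reads in 0P and 6.98% to 52.7% in 0ND. They took 8.80% to 40.3% in 8P and 8.85% to 47.2% in 8ND, the highest in mouse 1856. The part of these shares in polyp minus epithelium was not tested.

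One epithelium library stood apart. The 8ND library of mouse 1856 in cohort 2 is labelled as epithelium, but its label is written in the style of the polyp libraries. It had 48630 sites with at least 20 reads, against 15893 to 24475 in the other cohort 2 epithelium and 26446 to 54855 in the polyps. Over the 609 chosen sites measured in it, its mean methylation was 60.2%, against 69.0% in the other 8ND libraries and 49.6% in 8P. It lay below every other 8ND library at 209 of them (34.3%), where each of the other 8ND libraries was lowest at 8.36% to 23.8%. Over all eligible sites it was lowest at 4.71%. At 544 sites chosen without any library of mouse 1856 it read 58.3%, with the other epithelium at 69.9% and the polyps at 50.2%. Without it 530 sites were chosen from 12970 eligible ones and 471 of the 614 were among them. Of the rest, 107 no longer had 4 measured libraries of 8ND and 36 fell short of the threshold. At the 530 sites the median methylation in 2ND was 69.4%, 2.26% had no other listed site within 1000 bp and 25.3% lay in runs, each close to the value at the 614 given below. Its part in the falls on 8 mg was not tested beyond the values given with and without it.

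The falls were large at few sites and moderate at most. On 0 mg FA the change from 0ND to 0P over the 614 sites had a median of -20.9 percentage points (quartiles -27.0 and -15.2, lowest -93.6), where the mean over all eligible sites was -1.68. On 8 mg FA the median was -16.0 (quartiles -20.9 and -12.9, lowest -83.6), where the mean over all eligible sites was -0.623. Without the 8ND library of mouse 1856 the median change on 8 mg at the same sites was -17.9. Both falls reached 20 points at 109 sites, 30 points at 15 and 50 points at 5. The fall was larger on 0 mg than on 8 mg at 421 sites, a difference that was not tested because both falls chose the sites. Methylation was rarely lost altogether, since the polyp mean stayed at 50% or more at 301 sites in 0P and 326 in 8P and was under 10% in both polyp groups at 11.

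**Figure D1:**
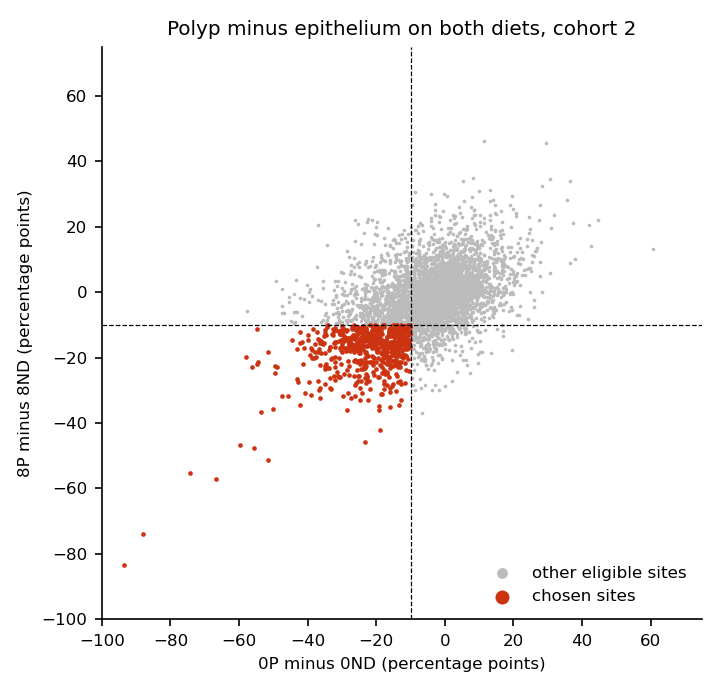
Change from epithelium to polyps in percentage points on 0 mg FA (horizontal axis) and on 8 mg FA (vertical axis) for each of the 14815 eligible sites of cohort 2, with the 614 chosen sites in red and the others in grey. The chosen sites fill the corner at or below -10 on both axes by the rule, with a median of -20.9 on 0 mg and -16.0 on 8 mg. A few reach falls beyond 50 points on both diets.

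Means over the 241 chosen sites that reached 20 reads in each of the 43 libraries place the polyps apart from the epithelium, as the rule sets for cohort 2. In 0ND of cohort 2 they ranged from 68.8% to 73.0% (71.0% ± 1.53, SD, n = 6), and in 0P from 38.5% to 57.1% (47.7% ± 7.64, n = 6). In 8ND they ranged from 60.6%, in mouse 1856, to 74.5% (67.3% ± 5.54, n = 6, and 68.6% ± 5.02, n = 5, without that mouse), and in 8P from 43.2% to 55.2% (50.1% ± 3.89, n = 7). No polyp library overlapped an epithelium library of its diet. The spread between lesions was wide on 0 mg, where the SD between libraries was larger in 0P than in 0ND at 471 of the 614 sites (median SD 17.0 against 10.1 points). On 8 mg the SD was larger in 8P than in 8ND at 167 sites (median 10.0 against 14.9 points), and at 210 without the 8ND library of mouse 1856. These SDs come from the values that chose the sites, and no such count was made over eligible sites. Reads differed too, with a group median at the chosen sites of 100 in 0ND, 148 in 0P, 56.8 in 8ND and 297.5 in 8P. Their part in the SDs was not tested. Over the 7696 eligible sites with reads in all libraries, the group means lay between 10.4% and 11.96%.

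**Figure D2:**
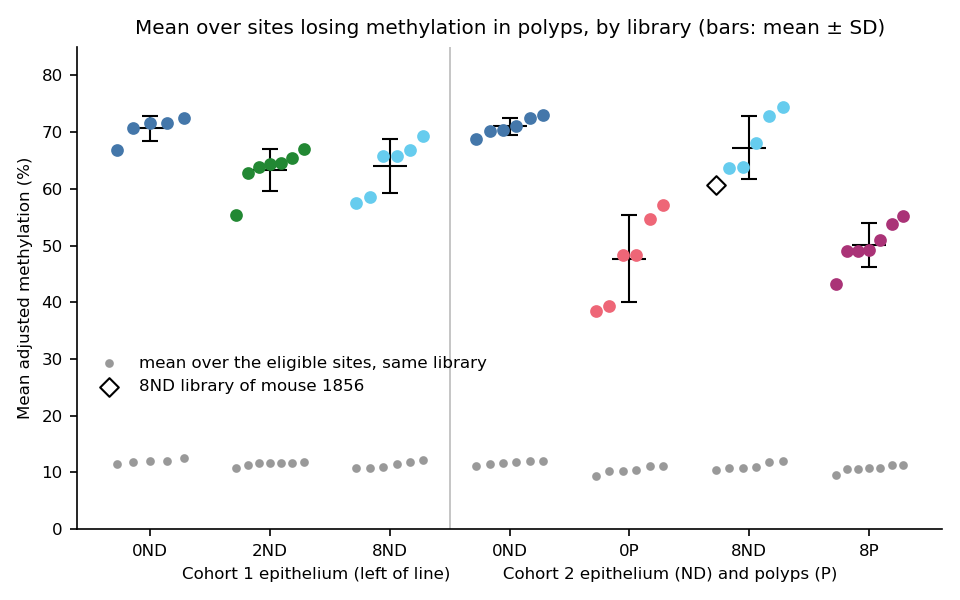
Mean adjusted methylation in percent (vertical axis) of each library over the 241 chosen sites measured in all 43 libraries, by group, with the group mean ± SD as bars and, in small grey points, the mean of the same libraries over 7696 eligible sites. The open diamond is the 8ND library of mouse 1856 at 60.6%, and the 0ND libraries of both cohorts sit above most 2ND and 8ND libraries.

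Complete separation of the tissues was also counted at single sites, as a description. Every measured 0P library lay below every measured 0ND library at 89 of the 614 sites, against 1.08% of eligible sites, and every 8P library below every 8ND library at 52, against 0.587%. Without the 8ND library of mouse 1856 the latter held at 98 of the 507 sites that kept 4 libraries of 8ND, against 1.34% of eligible sites. Both held at 11 sites with every library included. These counts and the shares per lesion that follow come in part from the rule, which used the same values, and nothing is read from them. Taken per lesion, a 0P library was below all 0ND libraries at 50.1% to 80.1% of the chosen sites measured in it and at 7.03% to 12.8% of eligible sites. An 8P library was below all 8ND libraries at 34.2% to 63.7% and at 3.50% to 7.504%. Mice 1807 and 1800 gave the highest of these shares.

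To read the fall in libraries that did not choose the sites, the choice was repeated without each of the 12 cohort 2 mice in turn, and polyp minus epithelium was taken in the mouse left out. The polyp was lower in 12 of 12 mice. On 0 mg the difference ranged from -26.1 points in mouse 1807 to -12.5 in mouse 1839 (mean -19.2 ± 5.53, SD, n = 6), while the difference over all eligible sites in the same mice ranged from -2.33 to -0.651. On 8 mg it ranged from -18.5 points in mouse 1800 to -4.77 in mouse 1856 (mean -12.4 ± 5.82, n = 6), with -1.24 to 0.306 over all eligible sites. The median over the 12 mice was -16.9 points, against -20.9 at the sites chosen with every mouse included. The share of sites lower in the polyp was 67.0% to 90.3% in the mice on 0 mg and 61.9% to 91.6% in those on 8 mg. Mouse 1830, with -7.19 points, was the other mouse with a fall under 10 points. In mouse 1856 the first lesion differed from the mouse's own epithelium by -11.1 points and the second by -6.82 points over the 614 sites.

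The 12 sites with the largest smaller fall of the 2 diets changed by -83.6 to -31.9 points on 8 mg. The deepest was chr19:50006817. It read 90.6% to 100% in 0ND of cohort 2 (median 97.4%) and 0%, 0%, 2.52% and 10.8% in the 4 libraries of 0P that measured it. It read 100% in each of the 4 libraries of 8ND that measured it, which did not include mouse 1856, and 3.80% to 72.3% in 8P (median 6.83%). No polyp overlapped the epithelium, and the 8P lesion of mouse 1830 at 72.3% was far above the next at 16.2%. Second was chr13:10491370, where 0ND read 65.0% to 100% (median 95.5%) and the 4 measured libraries of 0P 0%, 0%, 5.90% and 7.57%. The 5 measured libraries of 8ND read 11.3%, 91.5%, 97.6%, 100% and 100%, the lowest being mouse 1856, and 8P read 3.54% to 9.32% (median 5.34%). The change on 8 mg was -74.0 points with mouse 1856 and -91.2 without its 8ND library. The 8ND library of mouse 1856 was also far below the others at chr10:109953527 (1.58%, others 63.0% to 100%), chr7:52586304 (20.3%, others 91.3% to 100%), chr10:129323428 (0%, others 51.9% to 76.0%) and chr3:30601717 (0%, others 54.4% to 90.8%). Over the 13 sites with both falls of at least 30 points that were measured in it, it averaged 43.3%, with 79.0% in the other 8ND libraries and 30.3% in 8P.

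At several of these deepest sites the number of reads changed together with the methylation. A sequenced fragment ends in a cut site on each side, so neighbouring sites of a fragment have nearly equal reads. A neighbour within 1000 bp, with a median of at least 20 reads in cohort 2 epithelium at both sites (a minimum set after the data were seen), was present for 8 of the 12 sites and for 547 of the 614. At chr13:10491370 and its neighbour at 10491166, at a distance of 204 bp, the median reads were 430 and 453 in 2ND of cohort 1 and 39 and 347 in 8P. At chr19:50006817 the neighbour at 209 bp had a median of 276 reads in 2ND, against 297 at the site, and 1 read in 8P, against 34. Reads relative to the nearest listed site differed by more than 1 log2 unit between polyps and cohort 2 epithelium at 5 of these 8 sites. These were chr19:50006817 (5.36), chr13:10491370 (-2.36), chr7:52586304 (-2.49), chr10:40270675 (-2.25) and chr3:30601717 (-2.25), each value a difference of log2 read ratios. The shift was rare over the whole list, at 18 of the 547 sites (3.29%), and other eligible sites had it at 4.98%. Of the 11 such sites whose smaller fall reached 30 points, 5 had it. At the 529 sites with no such shift the mean change was -22.2 points on 0 mg and -17.2 on 8 mg, against -22.7 and -17.9 over all 614. Whether the shift in reads has a part in the methylation values of the 5 sites was not tested.

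Of the 3 sites among the 12 with a read neighbour and no shift, chr4:132827052 fell most. In cohort 2 it read 48.7% to 92.0% in 0ND with a median of 75.6%, against 0% to 38.3% in 0P with a median of 14.8%. On 8 mg the epithelium read 52.6% to 100% with a median of 70.3%, against 11.4% to 30.4% in the lesions with a median of 29.4%, so neither diet showed overlap. The lowest 8ND value was again mouse 1856, without which the change on 8 mg was -51.8 rather than -47.7 points. At chr19:45789634 the means fell from 87.3% ± 5.47 to 37.3% ± 25.7 on 0 mg (SD, n = 6 and 6) and from 79.3% ± 7.83 to 43.6% ± 10.5 on 8 mg (n = 6 and 7). Its 0P lesions spread from 2.65% to 79.7%, the highest below the lowest 0ND library at 81.4%. At chr9:31084981, where the neighbour had a median of 6 reads in 2ND and reads could not be compared in this way, the means fell from 92.2% ± 8.64 to 46.6% ± 13.6 on 0 mg (n = 6 and 6) and from 79.4% ± 16.9 to 47.5% ± 16.3 on 8 mg (n = 5 and 7). The 8P lesions there, 16.2% to 65.9%, overlapped the 8ND libraries, 61.5% to 100%. The sites chr8:124846978 and chr19:56418969, also among the 12, no longer had 4 measured libraries of 8ND without mouse 1856.

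**Figure D3:**
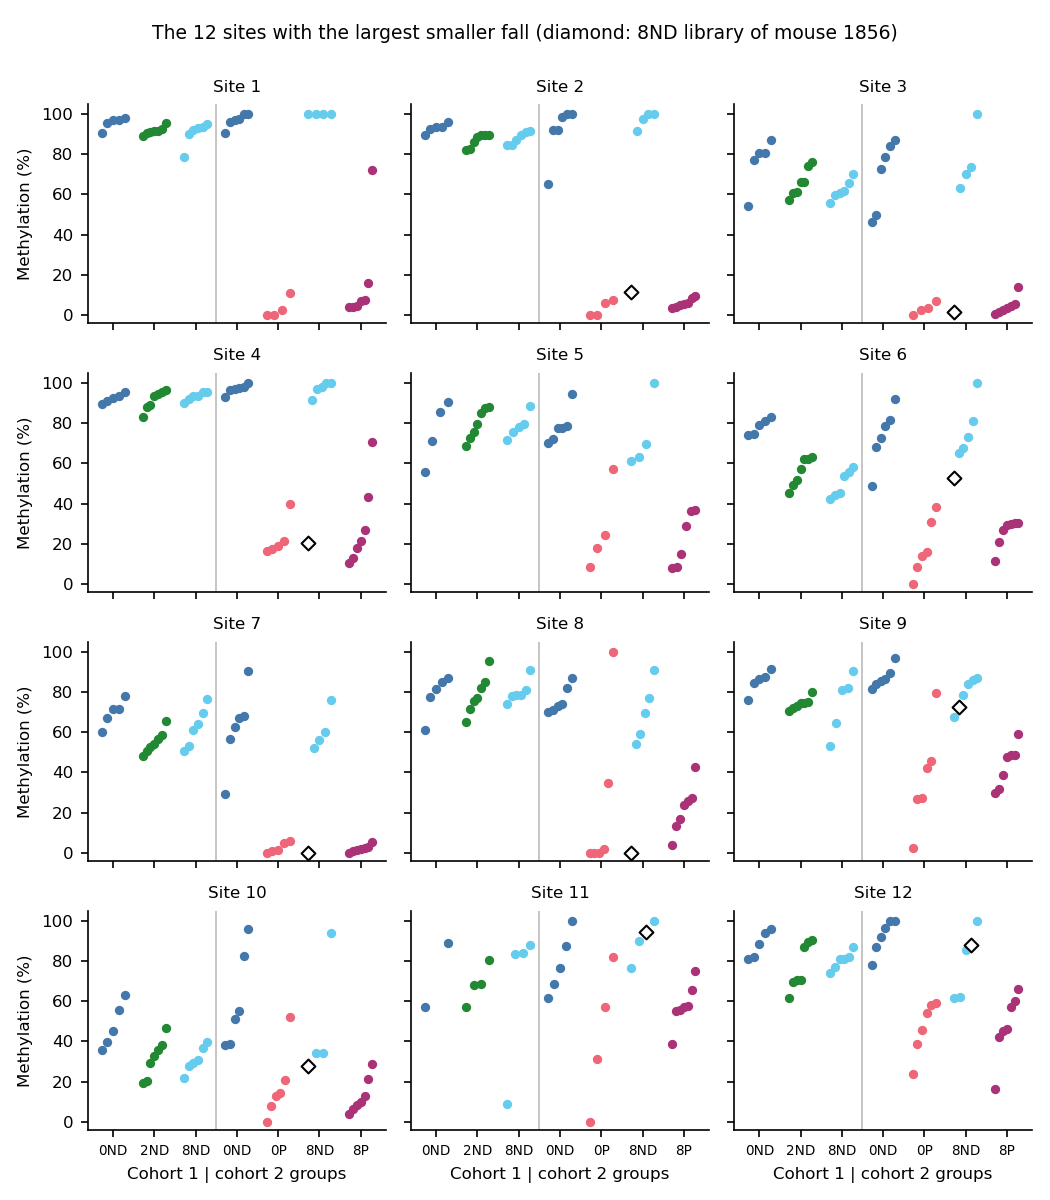
Adjusted methylation in percent (vertical axis) of each library with at least 20 reads at the 12 sites with the largest smaller fall, in order of that fall, by group (cohort 1 left and cohort 2 right of the line in each panel). Open diamonds mark the 8ND library of mouse 1856, which sits with the polyps at several sites, as at the second site with 11.3%, and near the lower end of the epithelium at the sixth with 52.6%.

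Sites near the threshold of 10 points show how small the step over it was. Just inside were chr17:51611705 (-10.02 on 0 mg and -12.1 on 8 mg), chr4:83583708 (-10.2 and -10.04) and chr2:155106291 (-15.1 and -10.04). Just outside were chr14:99461038 (-17.3 and -9.9998), chr1:24296356 (-20.6 and -9.97) and chr16:69186408 (-13.1 and -9.97). At chr4:83583708 the 0P libraries read 22.03%, 42.1%, 54.0%, 59.8% and 66.2%, within or near the 0ND range of 34.9% to 79.0% (median 58.8%). All 3 sites just outside passed the threshold without the 8ND library of mouse 1856, and chr4:83583708 did not, at -9.01.

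The starting level was read in 2ND of cohort 1, whose mice gave no library to the choice. At the 612 chosen sites measured there, the median methylation was 67.7% (quartiles 48.2% and 80.1%). The 14744 eligible sites measured there had a median of 0.236% with an upper quartile of 13.1%, and the 117 gaining sites had a median of 39.9% (quartiles 23.2% and 54.1%). Among sites at 50% to 70% in 2ND, 169 of 646 were chosen (26.2%, 95% Wilson interval 22.9% to 29.7%), and among those at 70% to 90%, 262 of 1086 (24.1%, 21.7% to 26.8%). Sites at 30% to 50% were chosen less often than those at 50% to 70%, at 109 of 557 (19.6%, 16.5% to 23.1%), with intervals that just overlap. At 90% or more, 22 of 740 were chosen (2.97%, 1.97% to 4.46%), although these sites had the most methylation to lose. At 10% to 30%, 49 of 829 were chosen (5.91%, 4.50% to 7.73%), and below 10%, 1 of 10886 (0.00919%), where a fall of 10 points is mostly out of reach of the rule. The loss was thus most frequent at sites of intermediate to high methylation and rare at sites that were almost fully methylated. Wilson intervals here cover counting over sites only, and neighbouring sites are not independent.

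**Figure D4:**
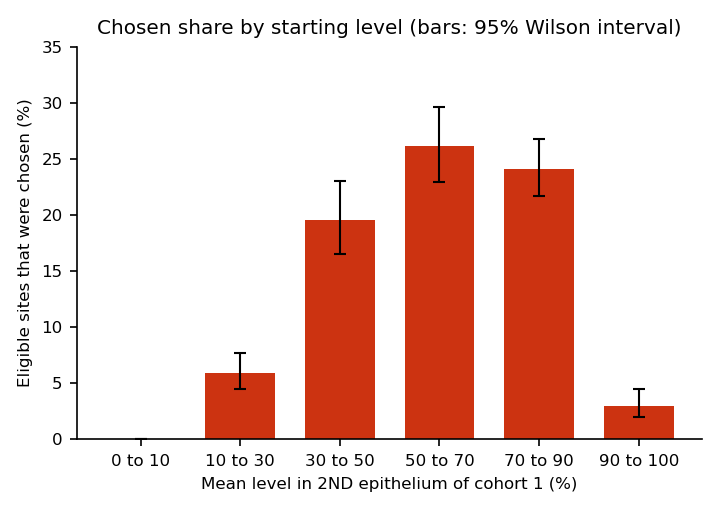
Share in percent of eligible sites that were chosen (vertical axis) by mean methylation in 2ND epithelium of cohort 1 (horizontal axis, bands in percent), with 95% Wilson intervals as bars. The share rises to 26.2% at 50% to 70%, is 24.1% at 70% to 90% and drops to 2.97% at 90% or more.

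Most of the chosen sites had a single other CCCGGG site nearby, as eligible sites of like methylation did. Of the 614, 13 (2.12%) had no other listed site within 1000 bp, 477 (77.7%) had 1, 119 (19.4%) had 2 to 4 and 5 (0.814%) had 5 or more. Of all listed autosomal sites, 63.9% had none and 16.1% had 1, so isolated sites were far rarer among the eligible sites than among all listed ones. Among the eligible sites, 0.736% had none, with 35.2% having 1 neighbour, 51.0% having 2 to 4 and 13.1% having 5 or more. Against eligible sites with at least 30% methylation in 2ND the difference was small, since these had 1 neighbour in 71.3%, 2 to 4 in 25.0% and 5 or more in 2.01%. Within those sites the chosen share was 22.6% (95% Wilson interval 13.5% to 35.5%) with no neighbour and 20.2% (18.6% to 21.99%) with 1. It was 14.3% (11.97% to 17.0%) with 2 to 4 and 8.20% (3.55% to 17.8%) with 5 or more. Sites with 1 neighbour and sites with 2 to 4 thus had intervals that did not overlap. Of the gaining sites the shares were alike, with 71.2% having 1 neighbour and 24.6% having 2 to 4. By chromosome the chosen share ran from 1.97% of eligible sites on chromosome 6 (13 of 660) to 5.69% on chromosome 12 (31 of 545).

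Most chosen sites stood alone. In runs of chosen sites no more than 1000 bp apart there were 153 (24.9%), as 75 pairs and 1 run of 3, while 461 had no chosen site that close. Neighbours within a run were 76 to 604 bp apart (median 202 bp). Of 8210 pairs of adjacent eligible sites, 465 held at least 1 chosen site, and both were chosen in 75 (16.1% of the 465). Of all eligible sites 4.14% were chosen, but that is a share of single sites and cannot be set against the share of pairs. Whether neighbours were chosen together more often than eligible sites of like methylation was not tested. The 388 partners that were not chosen were highly methylated, with a median of 81.3% in 2ND and 1 of them below 10%. Their median change was -5.29 points on 0 mg and -3.69 on 8 mg, and 214 of them were lower on both diets, 30 higher on both and 144 lower on one diet only. A fall of 10 points or more on one of the diets was seen at 150 partners. Of all eligible sites, most of them with little methylation to lose, 17.4% were lower on both diets.

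The run of 3 lay at chr4:116777019, chr4:116777623 and chr4:116777824. The first changed by -30.6 points on 0 mg and -17.2 on 8 mg, the second by -26.3 and -13.2, and the third by -14.2 and -18.2. Levels differed within the run, since the 0ND libraries of cohort 2 read 58.2% to 91.0% at the first site (median 79.0%), 55.6% to 85.4% at the second (median 69.6%) and 19.7% to 42.2% at the third (median 26.1%). Without the 8ND library of mouse 1856 the second site missed the threshold, at -9.38 points on 8 mg. The pair with the largest mean fall was chr13:10491370, described above, with chr13:10491166. The latter fell by 33.1 points on 0 mg and by 29.5 points on 8 mg, and here the 0P lesions spread from 0% to 71.9% (median 50.6%) within one pair whose other site was at 7.57% or less. In the next pair, chr4:139078086 and chr4:139078272, reads at both sites stayed nearly equal and both sites fell alike. The first changed by -49.6 points on 0 mg and -22.5 on 8 mg, and the second by -56.3 and -22.8. At the second site 0ND read 35.7% to 100% (median 74.3%) and 0P 0% to 44.3% (median 11.4%), while 8ND read 18.0% to 100% (median 40.5%) and 8P 15.4% to 34.3% (median 27.6%). Polyps and epithelium thus overlapped on both diets at that site, and more widely on 8 mg.

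Cohort 1 gave the 3 diets in epithelium that did not choose the sites, though 8 of its 18 mice also gave epithelium to cohort 2. Methylation at the chosen sites was lower in 2ND and 8ND than in 0ND, and 2ND and 8ND were close. Over the 241 sites measured in all libraries the 5 libraries of 0ND read 66.8%, 70.8%, 71.6%, 71.7% and 72.5%. The 7 libraries of 2ND ranged from 55.3% to 66.9% (median 64.4%) and the 6 of 8ND from 57.5% to 69.4% (median 65.7%). The lowest 0ND library, of mouse 1807, lay below the highest 2ND and the highest 8ND library, and the other 0ND libraries lay above all of them. The means were 70.7% ± 2.26 (SD, n = 5), 63.3% ± 3.76 (n = 7) and 64.0% ± 4.77 (n = 6), and the difference was -7.37 points for 2ND minus 0ND and -6.69 for 8ND minus 0ND. The same differences over the eligible sites were -0.480 and -0.620. Since both comparisons use the same 0ND libraries, their likeness is not independent evidence.

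Per site, each pair of diets was compared by a two-sided equal-variance two-group test, with a call at an unadjusted p under 0.05 and a difference above 5 points, at all autosomal sites with enough reads. In 8ND against 0ND, 161 of the 591 chosen sites tested were called lower (27.2%) and 3 higher (0.508%), where 4.08% and 0.656% of all tested sites were called. In 2ND against 0ND, 212 of 593 were called lower (35.8%) and 2 higher (0.337%), where the background was 4.00% and 0.450%. At the 530 sites chosen without the 8ND library of mouse 1856, 133 of 519 and 185 of 520 were called lower in these comparisons. In 8ND against 2ND, 10 of 605 were called lower (1.65%) and 25 higher (4.13%), with a background of 0.999% and 0.852%. The median difference over the chosen sites was -5.57 points for 8ND minus 0ND, -7.16 for 2ND minus 0ND and 1.04 for 8ND minus 2ND, with a median of 0 over all tested sites in each. The sign was negative at 498 (84.3%), 551 (92.9%) and 252 (41.7%) of them. No chosen site and no other site passed in any of the 3 comparisons after Benjamini-Hochberg adjustment over all tested sites. In the same order, 172 of 591, 223 of 593 and 38 of 605 chosen sites had an unadjusted p under 0.05. Among all tested sites these were 1012 of 17525, 1112 of 18433 and 545 of 18426. Of the 591 sites tested at both doses, 109 were called lower in both, against 1.98% of all sites tested at both. Of the sites that gained in polyps, 7 of 99 were called lower and 4 higher in 8ND against 0ND, and 6 and 4 of 99 in 2ND against 0ND.

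The called share differed by level, and few sites near 0% can be called lower. Among tested sites at 70% to 90% over cohort 1, 110 of 258 chosen sites (42.6%) and 143 of 740 other eligible sites (19.3%) were called lower in 2ND than in 0ND. For 8ND against 0ND these were 69 of 257 (26.8%) and 146 of 737 (19.8%). At 50% to 70% the shares in 2ND against 0ND were 32.7% of the chosen and 16.9% of the other eligible sites, and in 8ND against 0ND they were 30.9% and 23.0%. At 30% to 50% they were 35.1% and 10.7% in 2ND, and 31.2% and 17.5% in 8ND. At 90% or more the shares in 2ND were 29.7% of 37 chosen and 3.15% of 730 other sites, and at 10% to 30% the shares in 8ND were 20.5% of 39 and 5.43% of 718. The share was higher at the chosen sites in each band that held any, for both doses against 0ND, and no test of this was made.

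**Figure D5:**
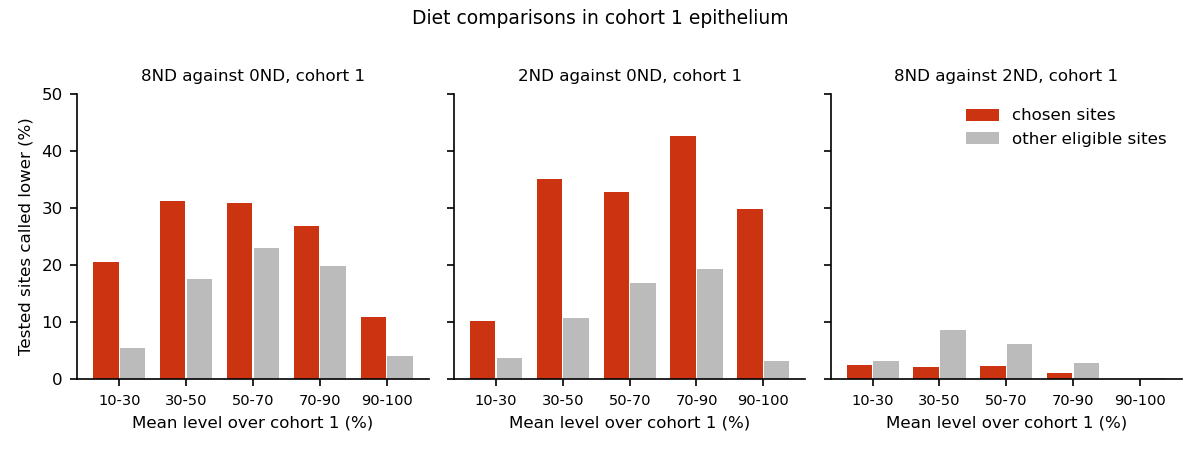
Share in percent of tested sites called lower (vertical axis) in each pair of diets of cohort 1 epithelium, by mean methylation over cohort 1 (horizontal axis, bands in percent), for chosen sites (red) and other eligible sites (grey). At 70% to 90% the red bar is at 42.6% and the grey at 19.3% in 2ND against 0ND, 26.8% and 19.8% in 8ND against 0ND, and both are low in 8ND against 2ND.

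These counts depended on a few libraries and on the adjustment. The 8ND libraries of mice 1841 and 1858 were the lowest of their group over the chosen sites (58.6% and 57.5%) and had 44.8% and 48.3% of their reads on the spiked standards, where the other cohort 1 libraries had 1.78% to 12.6%. Without them 75 of 459 chosen sites were called lower in 8ND than in 0ND (background 2.42%), the mean difference over the chosen sites was -3.45 rather than -6.47 points, and 2 sites were called lower in 8ND than in 2ND (background 0.661%) and 69 higher. Without the 0ND library that was the highest of its group (72.5%), 104 were called lower in 8ND than in 0ND (background 2.91%), and without the 8ND library of mouse 1841 or the one with the fewest reads (1488920), 6 were called lower in 8ND than in 2ND (background 0.749% and 0.782%). On the raw percent, before the authors' adjustment, 34 chosen sites were called lower in 2ND than in 0ND, where the background was 0.608%, although the mean difference was -6.90 points, near the -7.50 after adjustment. Among mice that gave nothing to cohort 2, a limma fit called 63 of 454 chosen sites lower in 8ND (background 3.64%) and 123 in 2ND (background 2.97%) than in 0ND, but this left 1 mouse on 8 mg, whose spread had to be taken from the other groups.

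Of the 109 sites called lower at both doses, the 5 with the largest smaller difference were at chr9:55937082, chr1:74274046, chr4:132827052, chr11:98973678 and chr15:78510774. They were picked for these differences, so the p-values below describe them and do not stand for the list. At chr4:132827052, the deep site without a read shift above, the 5 libraries of 0ND in cohort 1 read 74.2%, 74.8%, 79.1%, 80.8% and 83.2%. The 2ND libraries read 45.3% to 63.2% (median 57.3%) and the 8ND libraries 42.3% to 58.4% (median 49.5%), all below every 0ND library. The two-sided exact permutation p was 0.00216 for 8ND and 0.00126 for 2ND against 0ND, and 0.609 and 0.544 after adjustment over all tested sites. At chr11:98973678, 0ND read 74.6%, 77.0%, 78.5%, 83.5% and 85.4%, 2ND 39.8% to 73.1% (median 49.9%) and 8ND 35.7% to 63.4% (median 48.3%). The groups again did not overlap with 0ND (exact permutation p 0.0101 for 2ND and 0.00433 for 8ND, adjusted 0.591 and 0.609). In cohort 2 the same site read 77.5% to 89.8% in 0ND with a median of 84.3%, against 26.7% to 80.8% in 8ND with a median of 49.97%. It fell by 51.6 points in polyps on 0 mg and by 18.4 points on 8 mg. These cohort 2 values took part in choosing the site, and some of the mice gave libraries to both cohorts. They are therefore no independent repeat of the cohort 1 comparison.

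At chr1:74274046 the 0ND libraries of cohort 1 read 49.1%, 52.6%, 58.2%, 63.9% and 70.9%, all above the 2ND libraries at 26.2% to 42.2% (median 36.7%). The 8ND libraries read 23.3% to 53.6% (median 35.1%), so the highest of them reached into the 0ND range. The exact permutation p was 0.00126 for 2ND (adjusted 0.544) and 0.00866 for 8ND (adjusted 0.609). At chr9:55937082, 0ND read 54.9%, 71.4%, 75.1%, 75.7% and 79.97%, 2ND 28.0% to 59.4% (median 50.2%) and 8ND 30.1% to 56.8% (median 44.6%), each with 1 or more libraries inside the 0ND range. In cohort 2 its 0ND libraries spread from 15.3% to 70.9%, far wider than in cohort 1. At chr15:78510774, 0ND read 55.6%, 64.4%, 70.2% and 81.7%, 2ND 20.4% to 72.7% (median 39.8%), and the 5 measured libraries of 8ND 26.4%, 41.0%, 54.4%, 55.9% and 57.1%. Both doses overlapped 0ND, with an exact permutation p of 0.0397 for 8ND and 0.0524 for 2ND, and reads relative to the nearest listed site moved by 1.87 log2 units in polyps. Without the 8ND library of mouse 1856 neither chr15:78510774 nor chr9:55937082 met the rule for the chosen sites, since 3 libraries of 8ND were left at each, and the change on 8 mg at the former was then -7.25 points.

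Of the 12 deepest sites of cohort 2, 11 were tested between diets in cohort 1. Of these, 5 were called lower in 8ND and 5 in 2ND than in 0ND, with 3 in both, and 4 were called lower at neither dose. At chr19:50006817 the libraries of 0ND read 90.7%, 95.8%, 97.0%, 97.3% and 97.9%, the 2ND libraries 88.9% to 95.5% (median 91.3%) and the 8ND libraries 78.8% to 95.2% (median 92.6%), and neither dose was called. At chr7:52586304 the means were 92.5% ± 2.26 in 0ND (SD, n = 5), 91.5% ± 4.89 in 2ND (n = 7) and 93.4% ± 2.13 in 8ND (n = 6). At chr10:40270675 they were 75.7% ± 15.5 (n = 4), 79.6% ± 7.66 (n = 7) and 78.7% ± 6.38 (n = 5), which differed by less than their SDs. Of the pair on chromosome 4, chr4:139078272 read 58.6%, 70.3%, 73.1%, 73.6% and 74.8% in 0ND and 24.4% to 50.4% in 8ND (median 35.5%), without overlap. The exact permutation p was 0.00216 there (adjusted 0.609). The 2ND libraries spread from 28.5% to 89.8%, past both ends of the 0ND range but with a median of 43.8%, below every 0ND library, and were not called. The other site of the pair, chr4:139078086, was called lower at both doses, by -24.5 points in 8ND and -19.5 in 2ND. At chr4:139078272 the 2ND difference was nearly the same, at -19.6. At chr4:139078086 0ND read 48.7% to 67.7%, overlapped by 8ND at 16.7% to 50.0% and by 2ND at 15.7% to 71.6%. The exact permutation p there was 0.0130 for 8ND (adjusted 0.672) and 0.0505 for 2ND (adjusted 0.801).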

How the data were processed

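DREAM libraries of 43 laser-microdissected samples were analyzed, grouped by the diet, tissue, cohort and mouse number in the labels. The authors mapped the reads with Bowtie2 and SAMtools, as the submitters' processing notes name them, and deposited for each CCCGGG site of mm9 and for 18 spiked standards read counts of both states (methylated, unmethylated), their raw percent, and a percent adjusted with standards of 0, 25, 50 and 100% methylation. The site names carry mm9, although the methods text gives a human genome as the mapping target. The deposited adjusted percent follows the raw percent by 1 odds factor per library, 1.24 to 4.04 in cohort 1 and 0.992 to 1.97 in cohort 2, so the adjustment weighs more in cohort 1.

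The chosen sites, lists and named sites were selected with earlier results of these data known. Named were the 12 chosen sites with the largest smaller fall, the members of the 3 largest runs, up to 5 sites called lower at both doses with the largest smaller difference, and the 3 sites on each side of the threshold. Per-site tests between diets and exact permutation tests were run with scipy 1.17.1, pandas 2.3.3 and numpy 2.4.6 (Python 3.11.15) on all autosomal sites with 20 reads in at least 4 libraries of both groups, moderated tests in R 4.3.3 with limma 3.58.1, and figures with matplotlib 3.10.9. Scripts were tested on simulated data. Exact p-values are two-sided. Wilson intervals are at 95% and cover counting error only. PCR reads carry no molecular identifiers. Reads relative to the nearest listed site within 1000 bp were compared as log2 ratios with 0.5 reads added, where site and neighbour both had a median of at least 20 reads in cohort 2 epithelium.

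Polyps and epithelium of a mouse were paired by the mouse number in the labels. Deviations from the group means correlated by 0.0458 on average within a mouse and by -0.00945 between mice. The libraries closest within a group differed beyond sampling noise (chi-square per degree of freedom 2.99 on raw read counts), and so did both lesions of mouse 1856 (14.6). Each was counted as a library, although this does not make the lesions of that mouse independent. Sites were not assigned to genes, repeats or flanking sequence, since the reference at hand was GRCm38, a build with other coordinates.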

Additional observations from a re-analysis of the deposited data

Results flagged for a closer look

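Each group of 4 to 10 libraries was examined for an end value far from the others, by Dixon's ratio at 95%, for the library means and the 12 deepest sites. Chance alone flags about 1 in 20 groups, and 12 of 93 were flagged. Over the chosen sites, the lowest 2ND library of cohort 1 averaged 55.3%, below the next at 62.7%. Epithelium of mouse 1856 in cohort 2 was the low value at chr13:10491370 (11.3%, next 91.5%) and at chr7:52586304 (20.3%, next 91.3%). Among the lesions in 8P, mouse 1830 was high at chr19:50006817 (72.3%, next 16.2%) and at chr10:109953527 (14.1%, next 5.72%). Among those in 0P, mouse 1807 was high at chr7:52586304 (39.8%, next 21.6%), and mouse 1839 read 100% at chr3:30601717, where the next read 34.6%. In the remaining epithelium, 0ND of cohort 2 was low at chr13:10491370 in mouse 1805 (65.0%, next 91.9%) and high at chr10:40270675 in mouse 1808 (94.4%, next 78.7%). The 8ND library of mouse 1858 in cohort 2 was high at chr8:124846978 (93.8%, next 34.4%). In cohort 1 the 8ND library of the same mouse was low at chr19:50006817 (78.8%, next 89.95%) and at chr19:56418969 (8.98%, next 83.3%).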

How the results depend on the processing

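With other settings the number of chosen sites was 298 at 50 reads, 275 with reads in every library, 1161 at -5 points and 287 at -15 points, and 517 to 659 without single libraries (lowest without 8ND of mouse 1841). With the mouse as a replicate block, that is on paired differences, it was 620, of which 568 were among the 614. The counts of called sites that follow belong beside the share of all tested sites called lower. With the main settings this share was 4.08% in 8ND against 0ND, 4.00% in 2ND against 0ND and 0.999% in 8ND against 2ND. The share and the number of chosen sites tested changed with the setting, and they are not given for each setting. A count alone therefore does not set the chosen sites apart, and the counts below are not compared with the main ones. Sites called lower in 8ND than 0ND (161) numbered 63 by limma without the mice shared with cohort 2, 0 after Benjamini-Hochberg adjustment, 75 without the libraries over 30% on standards and 104 to 168 without single libraries. Those lower in 2ND than 0ND (212) numbered 34 on the raw percent, 123 by limma without shared mice, 0 after adjustment and 152 to 228 without single libraries. Those lower in 8ND than 2ND (10) numbered 6 with every library, 21 on the raw percent, 20 by limma without shared mice, 6 in a quasi-binomial model, 0 after adjustment, 2 without the libraries over 30% on standards, 5 at sites chosen without 8ND of mouse 1856 and 6 to 15 without single libraries. The mean over the chosen sites tested was -6.47 points for 8ND minus 0ND (-7.60 to -5.14 without single libraries, -3.45 without the libraries over 30% on standards and -8.86 on the raw percent), -7.50 for 2ND minus 0ND (-8.60 to -6.30) and 0.934 for 8ND minus 2ND (-0.243 to 2.30, 3.96 without those libraries and -2.05 on the raw percent). On the raw percent the median level in 2ND was 50.4%, and with the longer distance tried 0.977% of sites were isolated. At chr15:78510774 the exact permutation p for 8ND against 0ND was 0.0649 at 10 reads, and at chr11:98973678 that for 2ND against 0ND was 0.0795 on the raw percent. Of 211 alternatives, 187 were counted as unchanged, by wide limits. A count had to stay within a fixed ratio of the main one, and a mean to move by less than the SD between libraries or mice. A share had to stay in its Wilson interval, and a single site to keep its call. A mean can change sign within such limits, as 8ND minus 2ND did, and many alternatives left out a single library. The tally is therefore no measure of robustness. The alternatives without mouse 1856 and those on read ratios were chosen after seeing the data. Causes were not tested. Low read numbers limit single sites most in 8ND of cohort 2, where the median at the chosen sites was 39 in the shallowest library.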

Other observations

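The rule for the chosen sites left out the sex chromosomes. On chromosome X, 276 sites had the same reads in the same groups, and 16 of them (5.80%) were lower in polyps by at least 10 points on both diets while 11 were higher by as much. Diets were also compared within each tissue of cohort 2, over the 241 common sites. The means differed by -3.74 points for 8ND minus 0ND and by 2.38 points for 8P minus 0P. Eligible sites with reads in every library gave -0.575 and 0.269 points. If mouse 1856 is left out of 8ND, its mean is 68.6%, beside 71.0% in 0ND. All of these groups took part in choosing the sites, so the differences at the chosen sites are descriptive and were not tested.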
